A study of Mus musculus with 4 samples.

Results

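Transcripts of 36 enzymes that make serine, one-carbon units, asparagine, aspartate, proline, nucleotides and polyamines were described in endothelial cells (ECs) of the mouse retina. The 36 genes were chosen by symbol, and each was found once among the 26822 genes of the table. The ECs came from C57BL/6J mice on postnatal day 6 (P6), when vessels still spread over the retina, and every library is labelled control for treatment. Retinas were taken in pairs and dissociated with collagenase, and viable cells positive for CD31 (encoded by Pecam1) and negative for CD45 (encoded by Ptprc) were sorted by flow cytometry. The 4 RNA-seq libraries form 1 group with no mutant, treated or other tissue to compare with, so genes were compared with genes and libraries with each other. The RNA isolation protocol in the labels names human umbilical vein ECs, so its details are not used here.

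Dividing cells need nucleotides, and the pathways that make them draw on amino acids taken up from outside. Serine is made from a glycolytic intermediate, and its side-chain carbon is loaded onto folate by serine hydroxymethyltransferases in the mitochondrion and the cytosol. Folate-bound carbon then enters the purine ring, thymidylate and the methionine cycle, whose product S-adenosylmethionine also feeds polyamine synthesis. Aspartate supplies nitrogen to purines and much of the pyrimidine ring, while glutamine supplies amide nitrogen to both and to asparagine. Proline is made from glutamate and is abundant in collagens, which growing vessels lay down as basement membrane.

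The values are normalised read counts that the authors rounded to whole numbers, here called values. A value per kb is this value divided by the length of the gene's exons in kilobases, and levels of different genes are compared only on that scale. A gene with a mean value of at least 10 is called detected. Means are given ± SD over n = 4 libraries. The authors describe the 4 retinal EC samples as independent, but the labels do not tie the libraries to separate animals. The p-values set a difference between genes against the spread of these libraries only, which may be technical.

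Library totals lay between 14843847 and 15017241, and the 36 genes together took 0.352 to 0.360% of them. How many reads a value rests on is not known. Library 4 stood apart from the others: correlations of log2 values over detected genes, which are not independent replicates, were 0.960 to 0.965 with library 4 and 0.970 to 0.974 among libraries 1 to 3. The summed value of 10 photoreceptor markers was 15710 in library 4 and 5711 to 6971 in libraries 1 to 3, and all 10 were highest in library 4. All 10 EC markers were detected, with sums of 56762 to 59595, whereas the 6 leukocyte and microglia markers summed to 10 to 80 and Ptprc and Cx3cr1 stood at 0 in library 4. Sums of 6 pericyte markers ran from 530 in library 2 to 3620 in library 4, and those of 5 astrocyte markers from 154 in library 2 to 1451 in library 1. In such bulk libraries, fewer cells of a type and less RNA per cell cannot be told apart.

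All 36 enzymes were detected, beside 56.0% of all genes in the table. A mean of at least 1000 was reached by 22 of 36, beside 19.7% of all genes. Per kb, 30 of 36 lay above the median of detected genes, beside 49.9% of the other detected genes, and 16 of 36 lay above the 75th percentile (466 per kb), which 25.0% do. The median level of the 36 was 437 per kb, beside 161 per kb over 15000 detected genes of known length. Levels ran from 24.6 ± 9.77 per kb for Pycr1 to 1293 ± 52.5 per kb for Rrm2, a 52.5-fold range. The scale is bunched at its upper end: the 95th percentile of detected genes was 1110 per kb, the 99th was 1546 per kb and the highest gene, Lrp8, stood at 2854 per kb. The 10 highest genes took only 0.795 to 0.827% of each library total, and Actb stood at 1705 per kb. How closely the highest values follow the number of transcripts was not tested.

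**Figure D1:**
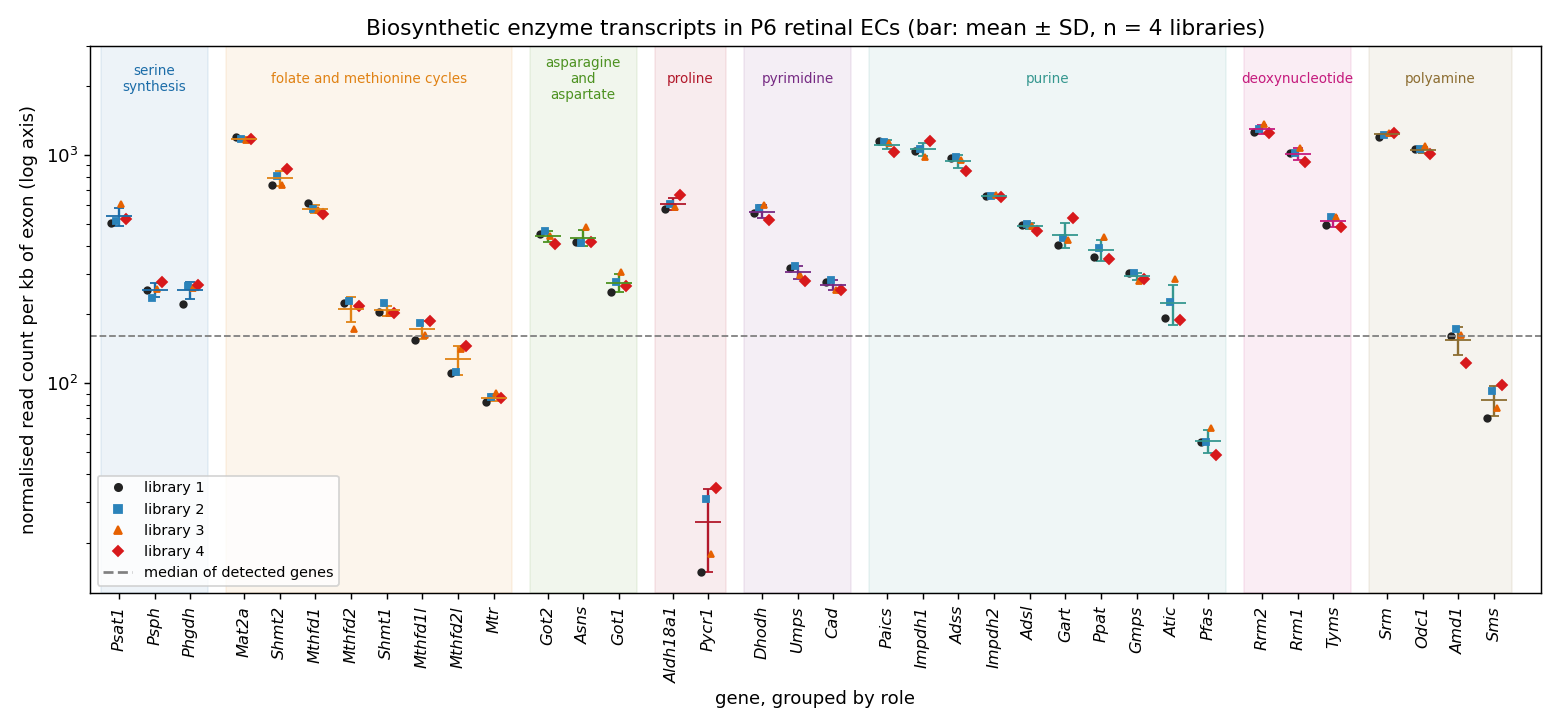
Normalised read count per kb of exon (log axis) of the 36 enzymes in 4 libraries of P6 retinal ECs, grouped by role. Points are libraries, bars are mean ± SD and the dashed line is the median of detected genes at 161 per kb; 30 genes lie above it, and Pycr1, Pfas, Sms, Mtr, Mthfd2l and Amd1 lie below it.

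**Figure D2:**
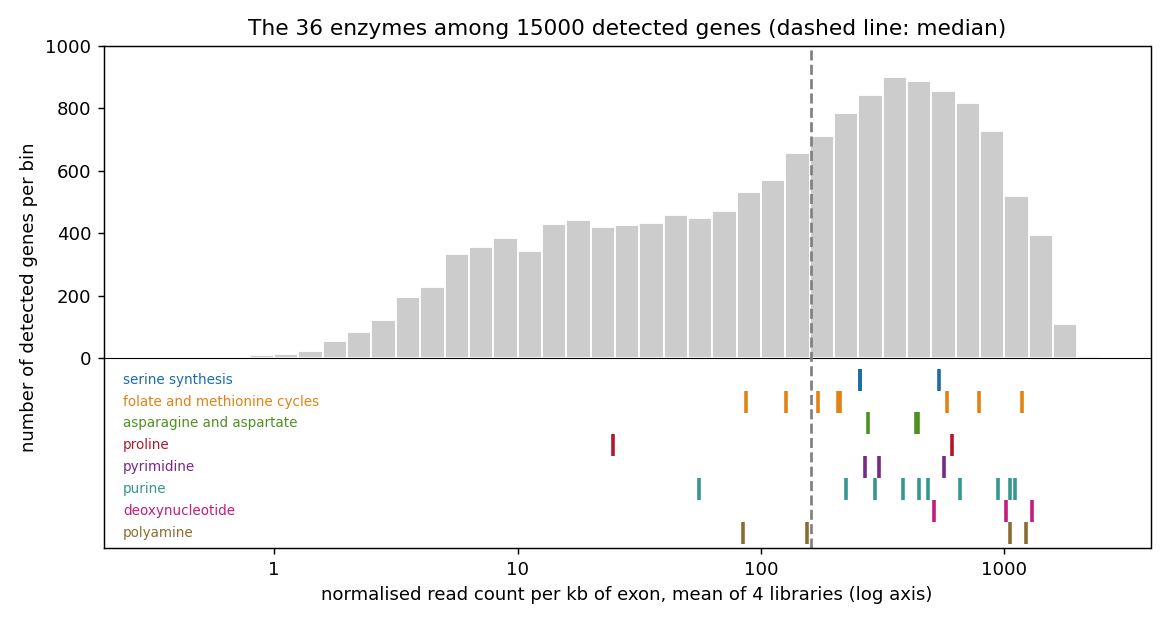
Number of detected genes by normalised read count per kb of exon (log axis, mean of 4 libraries), with the 36 enzymes as ticks by role below. The ticks of 16 enzymes fall above 466 per kb, the 75th percentile of detected genes.

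The order of the 36 levels was resolved only in part. Of 35 neighbouring steps in that order per kb, 9 separated genes whose values did not overlap. Rrm2, Srm and Mat2a each stood clear of the next gene, as did Mthfd2l, Sms and Pfas at the lower end. From Paics through Impdh1, Odc1, Rrm1 and Adss to Shmt2, each gene overlapped the next. Role medians ran from 1011 per kb for the 3 deoxynucleotide enzymes to 210 for the 8 enzymes of the folate and methionine cycles. Between them lay the 4 polyamine (605), 10 purine (466), 3 asparagine and aspartate (432), 2 proline (318), 3 pyrimidine (307) and 3 serine enzymes (256). The roles overlapped widely. Polyamine enzymes ran from 84.5 to 1230 per kb, folate and methionine enzymes from 86.4 to 1175 and purine enzymes from 55.7 to 1110. No polyamine gene lay near its role's median, and medians of so few genes do not rank the roles.

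Promoter sequences were read because transcription factors that sense amino acid supply, growth and the cell cycle are known to act on several of these genes. RefSeq windows from 250 bases before to 50 after the start (GRCm38.p6) were matched for 33 of the 36. Windows of Asns, Got1 and Pycr1 held TGATGNAA, the letters of an ATF4-type element, where ATF4 is the transcription factor of the amino acid response. These were 3 of 33 genes (9.09%), beside 4.51% of all genes and 2.64% of detected genes with such a window. The windows are shown 5′ to 3′ with the match in capitals, for Asns (chr6:7693160-7693459, minus strand), Got1 (chr19:43524556-43524855, minus strand, where the letters lie on the opposite strand) and Pycr1 (chr11:120643699-120643998, minus strand).
Asns: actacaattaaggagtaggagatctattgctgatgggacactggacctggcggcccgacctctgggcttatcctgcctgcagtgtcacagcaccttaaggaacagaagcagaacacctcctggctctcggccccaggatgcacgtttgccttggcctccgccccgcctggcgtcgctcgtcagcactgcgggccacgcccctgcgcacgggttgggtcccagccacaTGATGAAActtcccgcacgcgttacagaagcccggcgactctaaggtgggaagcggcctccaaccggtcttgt
Got1: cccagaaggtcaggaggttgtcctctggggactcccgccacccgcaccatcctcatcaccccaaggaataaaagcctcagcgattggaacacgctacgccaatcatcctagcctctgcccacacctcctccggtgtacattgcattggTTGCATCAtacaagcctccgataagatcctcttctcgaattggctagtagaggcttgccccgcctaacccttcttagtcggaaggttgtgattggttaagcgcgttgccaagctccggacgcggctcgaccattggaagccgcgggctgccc
Pycr1: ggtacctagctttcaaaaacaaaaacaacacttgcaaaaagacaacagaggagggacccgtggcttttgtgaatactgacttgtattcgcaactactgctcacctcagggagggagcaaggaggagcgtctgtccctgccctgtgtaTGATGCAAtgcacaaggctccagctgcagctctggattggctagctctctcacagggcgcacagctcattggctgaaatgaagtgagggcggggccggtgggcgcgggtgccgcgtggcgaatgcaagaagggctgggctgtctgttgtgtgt
The match starts 23 bases before the start of Asns, 102 before that of Got1 and 103 before that of Pycr1. The 3 genes did not share a level: Asns stood at 432 ± 35.3 per kb, Got1 at 276 ± 24.4 per kb and Pycr1 at 24.6 ± 9.77 per kb. Atf4 itself was present at 966 ± 44.3 per kb. Ddit3 and Trib3, which ATF4 is known to induce, stood at 148 ± 15.2 and 72.9 ± 11.9 per kb. They were picked from its known targets after their values were seen, and the activity of ATF4 was not tested.

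The letters GGAATG, bound by TEAD factors, through which YAP and TAZ act, occurred in 1 of 33 windows (3.03%), that of Mthfd1, beside 16.6% of all genes and 14.3% of detected genes. This window (chr12:76254982-76255281, plus strand) is shown because it is the only match, in capitals and on the opposite strand, 123 bases before the start.
Mthfd1: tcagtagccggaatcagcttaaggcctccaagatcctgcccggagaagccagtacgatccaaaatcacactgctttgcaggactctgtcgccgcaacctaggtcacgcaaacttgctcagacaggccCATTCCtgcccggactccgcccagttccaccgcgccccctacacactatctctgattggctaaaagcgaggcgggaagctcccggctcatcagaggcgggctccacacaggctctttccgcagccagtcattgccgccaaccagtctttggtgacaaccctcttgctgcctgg
The same window held GGCGGGAA, the E2F-type letters, which also occurred for Ppat and Rrm1 (9.09% of windows, beside 2.52% of all genes and 4.69% of detected genes). CACGTG, the E-box that MYC and MAX bind, occurred in the windows of Aldh18a1, Paics, Atic, Impdh2, Tyms and Sms (18.2%, beside 8.09% of all genes and 11.5% of detected genes). Myc stood at 1084 ± 51.4 per kb. Shmt2 and Ppat held GCGCATGC, the core bound by NRF1 (6.06%, beside 3.05% of all genes and 5.79% of detected genes). Each string was searched on both strands and none contains another. No match was found for 20 of the 33, and a match or its absence in this window says nothing of what binds there.

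Transcripts for each step of serine synthesis were present. Psat1, the aminotransferase of the second step, had values of 1478, 1504, 1788 and 1543 in libraries 1 to 4. Phgdh, the dehydrogenase that opens the route (chr3:98313170-98339990, minus strand), had values of 422, 506, 496 and 510. Psph, the phosphatase of the last step, had values of 441, 407, 448 and 479. Psat1 was highest in library 3 and Phgdh lowest in library 1, and Psat1 overlapped neither of the others. Per kb, Psat1 stood 2.10-fold above Phgdh (log2 difference 1.07, exact two-sided permutation p = 0.0286, adjusted 0.0286) and 2.09-fold above Psph (exact permutation p = 0.0286, adjusted 0.0286). As deposited these folds were 3.26 and 3.55. Phgdh and Psph, at 255 ± 21.9 and 256 ± 17.0 per kb, overlapped.

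These pairs belong to 15 pairs of isoenzymes, subunits and linked steps that were set against each other, and in all 15 the 4 values per kb of one gene lay above the 4 of the other. The p of 0.0286, also after Benjamini-Hochberg adjustment over the 15, is the smallest that 4 values against 4 can give. Both genes of a pair were measured in the same libraries, and a sign-flip permutation within libraries cannot go below an exact p of 0.125, so that with the library as a block none of the 15 passed. Among all pairs of detected genes 89.0% do not overlap either, so that the separation says little of these pairs. The size of each difference carries the description. For pairs of high genes this size is uncertain as well, because the scale is bunched at its upper end.

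**Figure D3:**
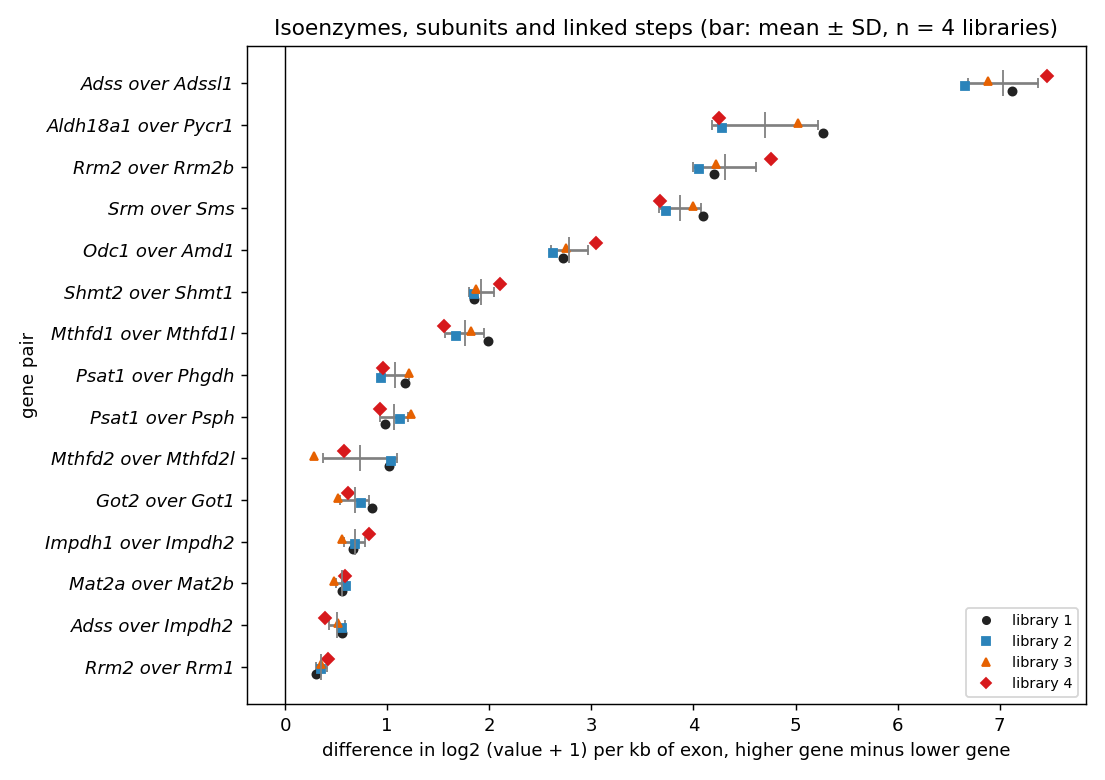
Difference in log2 (value + 1) per kb of exon between the higher and the lower gene of 15 pairs in each of 4 libraries, with mean ± SD. All points lie right of 0, from a mean fold of 1.28 for Rrm2 over Rrm1 to 131 for Adss over Adssl1.

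The mitochondrial arm of folate metabolism was the higher one at the step that takes carbon from serine. Shmt2, the mitochondrial serine hydroxymethyltransferase (chr10:127517123-127522444, minus strand), had values of 1708, 1859, 1708 and 2005. Shmt1, its cytosolic counterpart (chr11:60788104-60811718, minus strand), had values of 585, 639, 577 and 578. The ranges lay far apart, with Shmt2 highest in library 4 and Shmt1 highest in library 2. Per kb, Shmt2 stood at 790 ± 61.8 and Shmt1 at 208 ± 10.4, a 3.78-fold difference (log2 1.92 ± 0.12, exact permutation p = 0.0286, adjusted 0.0286).

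The next steps showed the opposite order of compartments. Mthfd1, the cytosolic enzyme that interconverts the folate-bound carbon forms, had values of 1986, 1885, 1860 and 1788. Mthfd1l, the mitochondrial synthetase that releases formate, had values of 660, 779, 693 and 802. Mthfd1 was lowest and Mthfd1l highest in library 4, with no overlap. Per kb the cytosolic gene was 3.38-fold higher, at 580 ± 25.3 against 172 ± 15.9 (exact permutation p = 0.0286, adjusted 0.0286).

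Both mitochondrial dehydrogenase genes lay below the median of the 36. Mthfd2 had values of 470, 477, 359 and 453, and its relative Mthfd2l had 299, 300, 380 and 392. As deposited the ranges overlapped, and in library 3 Mthfd2 lay below Mthfd2l. Per kb of exon Mthfd2 stood at 211 ± 26.3 and Mthfd2l at 127 ± 18.6, a 1.66-fold difference (exact permutation p = 0.0286, adjusted 0.0286) that did not pass with the deposited values (adjusted p = 0.0857, exact permutation) or with the length of the longest transcript (adjusted p = 0.0857, exact permutation). GENCODE M21 puts the start of Mthfd2 108 bases from that of Mob1a on the other strand (833 ± 46.6 per kb), whereas the RefSeq starts lie 8435 bases apart.

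The methionine cycle held one of the highest and one of the lowest levels. Mat2a, which makes S-adenosylmethionine (chr6:72432799-72439558, minus strand), had values of 4055, 3966, 3918 and 3992, a spread of 1.43% (coefficient of variation). Mtr, the methionine synthase that joins the folate and methionine cycles, had values of 686, 720, 747 and 714. Mat2a was highest and Mtr lowest in library 1, and the levels were 1175 ± 16.8 and 86.4 ± 3.02 per kb. Mat2b, the regulatory subunit for Mat2a, stood at 801 ± 26.8 per kb, 1.47-fold below Mat2a (exact permutation p = 0.0286, adjusted 0.0286), whereas Mat1a, the form known from liver, had a value of 0 in all 4 libraries.

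Asparagine and aspartate enzymes lay close to one another. Asns, asparagine synthetase (chr6:7675169-7693254, minus strand), had values of 901, 888, 1049 and 901. Got2, the mitochondrial aspartate aminotransferase, had values of 1143, 1176, 1117 and 1031. Got1, the cytosolic form, had values of 516, 572, 634 and 546. Asns and Got1 were highest in library 3 and Got2 lowest in library 4. Per kb Got2 stood at 441 ± 24.5 and Got1 at 276 ± 24.4, a 1.60-fold difference (exact permutation p = 0.0286, adjusted 0.0286), and Asns overlapped Got2.

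Proline synthesis had the widest contrast among members of one route. Aldh18a1, which opens the route from glutamate (chr19:40550257-40588463, minus strand), had values of 2051, 2142, 2075 and 2348. Pycr1, a mitochondrial reductase of the last step (chr11:120635712-120643769, minus strand), had values of 56, 117, 67 and 131. Pycr1 was the lowest of the 36, and its values in libraries 2 and 4 were well above those in libraries 1 and 3. Per kb Aldh18a1 stood 26.1-fold above Pycr1 (exact permutation p = 0.0286, adjusted 0.0286). The cytosolic reductase Pycrl stood at 577 ± 25.4 per kb and was above Pycr1 in each library.

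All 3 pyrimidine genes had a mean of at least 1000. Cad, the multifunctional enzyme of the first steps (chr5:31054780-31078479, plus strand), had values of 2009, 2057, 1864 and 1859. Dhodh, the mitochondrial dihydroorotate dehydrogenase, had values of 1131, 1187, 1230 and 1053. Umps, which makes uridine monophosphate, had values of 1116, 1137, 1041 and 979. All 3 were lowest in library 4, Cad by only 5 units. Per kb the order was Dhodh at 564 ± 37.5, Umps at 307 ± 20.8 and Cad at 268 ± 13.9, of which Dhodh overlapped neither of the others, whereas Umps and Cad overlapped.

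Purine levels varied from enzyme to enzyme. Of the genes on the way to inosine monophosphate (IMP), Paics was highest at 1110 ± 53.7 per kb and Pfas lowest at 55.7 ± 6.24 per kb, a 19.9-fold difference. Adsl, which acts in this route and again on the way to AMP, stood at 486 ± 14.7 per kb, Gart at 447 ± 55.6, Ppat at 383 ± 39.7 and Atic at 224 ± 44.5 per kb. Pfas had the second lowest level of the 36.

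**Figure D4:**
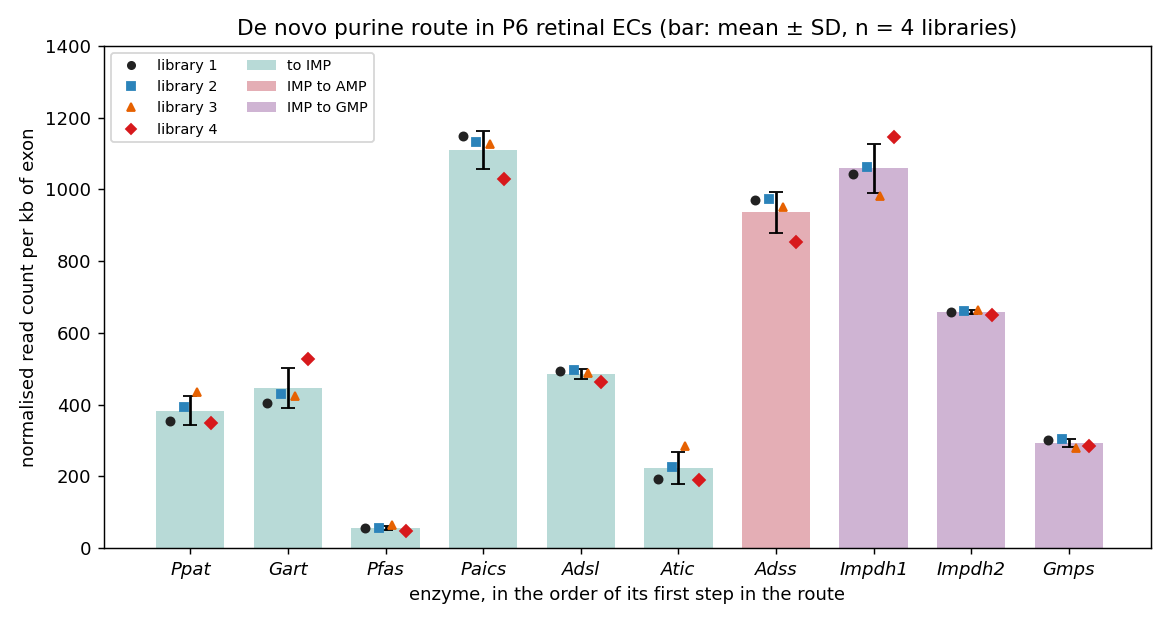
Normalised read count per kb of exon for the purine enzymes in the order of the route, with bars for mean ± SD and points for 4 libraries of P6 retinal ECs. Paics, Adss and Impdh1 are the highest bars, between 937 and 1110 per kb, and Pfas is the lowest at 55.7 per kb.

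The individual values show where libraries parted. Ppat, the amidotransferase that commits the route, had values of 1417, 1562, 1735 and 1392. Gart, which carries several early steps, had values of 1609, 1717, 1695 and 2107. Atic, which closes the ring (chr1:71557150-71579631, plus strand), had values of 549, 642, 813 and 540. Ppat and Atic were highest in library 3, and Gart in library 4. Pfas, the amidotransferase downstream of Gart, had values of 353, 351, 407 and 310. Paics, which adds carbon dioxide and aspartate, had values of 2854, 2816, 2804 and 2561. Adsl had values of 1836, 1842, 1811 and 1724, and these last 3 genes were all lowest in library 4.

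Ppat and Paics lie head to head on chr5, at 76913249-76951578 (minus strand) and 76951307-76967509 (plus strand), so that their annotated starts overlap by 271 bases. Although they share a start region, Paics stood 2.89-fold above Ppat per kb. Their RefSeq promoter windows do not overlap and are shown for this reason, with E2F-type letters in capitals for Ppat (chr5:76951529-76951828, minus strand, a match on each strand) and the palindromic E-box in capitals for Paics (chr5:76951052-76951351, plus strand).
Ppat: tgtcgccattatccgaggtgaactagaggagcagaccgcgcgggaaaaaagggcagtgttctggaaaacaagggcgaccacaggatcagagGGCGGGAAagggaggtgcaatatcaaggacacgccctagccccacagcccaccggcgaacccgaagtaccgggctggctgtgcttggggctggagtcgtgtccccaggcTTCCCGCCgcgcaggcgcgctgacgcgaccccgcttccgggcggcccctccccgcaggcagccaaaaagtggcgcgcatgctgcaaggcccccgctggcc
Paics: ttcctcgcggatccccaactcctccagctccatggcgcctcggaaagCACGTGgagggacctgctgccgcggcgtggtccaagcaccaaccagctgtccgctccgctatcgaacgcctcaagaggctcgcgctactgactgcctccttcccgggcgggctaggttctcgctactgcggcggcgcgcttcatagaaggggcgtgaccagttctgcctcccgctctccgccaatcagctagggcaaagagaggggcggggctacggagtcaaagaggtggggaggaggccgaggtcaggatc
Gart also has a neighbour on the other strand, Son, whose annotated start is 554 bases away and which stood at 461 ± 28.1 per kb, close to Gart. With Mthfd2 these were 4 of 36 genes with an opposite start within 1000 bases (11.1%), beside 16.1% of detected protein-coding genes. The kit marks strand, but whether counting used it is not given in the sources used here, so reads in overlapping stretches are uncertain.

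Both branches from IMP were transcribed. Adss, the first step to AMP, had values of 2687, 2699, 2637 and 2362. Impdh1 and Impdh2, isoenzymes of the first step to GMP, had values of 2854, 2906, 2680 and 3135 and of 1224, 1231, 1235 and 1209. Gmps, which completes GMP, had values of 2456, 2457, 2272 and 2320. Adss was lowest and Impdh1 highest in library 4, whereas Impdh2 had the smallest spread of the 36 (coefficient of variation 0.934%). Per kb Impdh1 stood at 1059 ± 68.7 and Impdh2 at 659 ± 6.16, a 1.60-fold difference (exact permutation p = 0.0286, adjusted 0.0286), and Adss was 1.42-fold above Impdh2 (exact permutation p = 0.0286, adjusted 0.0286). Impdh1 is known as the isoenzyme of photoreceptors, and the photoreceptor markers were also highest in library 4; their part in the Impdh1 level was not tested. Adssl1, the relative of Adss known from muscle, had values of 12, 17, 14 and 8, 131-fold below Adss per kb (exact permutation p = 0.0286, adjusted 0.0286), and 77.9-fold with a pseudocount of 10.

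Deoxynucleotide enzymes had the highest median of the 8 roles. Rrm1, the large subunit of ribonucleotide reductase (chr7:102441695-102469771, plus strand), had values of 4062, 4086, 4277 and 3732. Rrm2, its small subunit in dividing cells (chr12:24708241-24714146, plus strand), had values of 2749, 2856, 2989 and 2744. Tyms, which makes thymidylate, had values of 1553, 1693, 1691 and 1532. Each was lowest in library 4, Rrm2 by only 5 units, and both reductase subunits were highest in library 3. The summed value of 12 S phase and mitosis markers was 32526, 33402, 37386 and 32274 in libraries 1 to 4. It was highest in library 3, as were 11 of the 12. In library 4 it lay only just below library 1. Mki67, Top2a, Mcm2, Mcm7, Ccnb1 and Ccna2 were lowest in library 1, and the other markers in library 4. The part of these markers in the levels above was not tested.

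The order of the reductase subunits depended on the scale. Per kb Rrm2 stood at 1293 ± 52.5 and Rrm1 at 1011 ± 56.6, a 1.28-fold difference with Rrm2 higher in each library (exact permutation p = 0.0286, adjusted 0.0286). As deposited, without division by length, Rrm1 was 1.42-fold above Rrm2. Rrm2b, the small subunit used outside S phase, had values of 311, 356, 333 and 210, 19.8-fold below Rrm2 per kb (exact permutation p = 0.0286, adjusted 0.0286) and 9.52-fold as deposited. Tyms stood at 511 ± 27.4 per kb.

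Polyamine enzymes split into a high and a low pair. Odc1, ornithine decarboxylase, had values of 2338, 2345, 2403 and 2233, and Srm, which makes spermidine, had 1609, 1633, 1668 and 1672. Amd1, which makes the aminopropyl donor, had values of 513, 552, 518 and 393. Sms, which makes spermine, had values of 261, 342, 289 and 364. Amd1 was lowest and Sms highest in library 4, while Odc1 and Srm varied by 3.04 and 1.82% (coefficient of variation). Per kb Odc1 stood 6.89-fold above Amd1 (1055 ± 32.1 against 154 ± 21.7, exact permutation p = 0.0286, adjusted 0.0286). Srm stood 14.6-fold above Sms per kb (1230 ± 22.4 against 84.5 ± 12.7, exact permutation p = 0.0286, adjusted 0.0286), and 5.27-fold as deposited. Amd1 and Sms have near-identical copies, as set out below, so that these folds are uncertain.

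The spread between libraries was small for most of the 36. The coefficient of variation was under 10% for 27 and 10% or more for 9, with a median of 6.57%. Among the 22 with a mean of at least 1000 the median was 5.46%, beside 4.94% for all 5279 genes at that level. The highest value exceeded 1.5 times the lowest for Pycr1 (2.34-fold) and Atic (1.51-fold), 2 of 36. The share was 34.0% over detected genes, a set not matched for level. Without library 4, an alternative added after seeing the data, only Pycr1 exceeded 1.5 times.

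One library stood apart from the other 3, by Dixon's test at the 95% level, for 4 of 36 genes (11.1%), beside 6.62% of detected genes. These were Phgdh, low in library 1, Shmt1, high in library 2, Asns, high in library 3, and Paics, low in library 4. No library was shared among them.

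Library 4 was the lowest for 17 of 36 genes (47.2%), beside 33.0% of detected genes, and the highest for 11 of 36 (30.6%), beside 30.6% of detected genes. The 17 held 7 of 10 purine genes, also with median-ratio factors or equal totals. Of these 7, Impdh2 (1209 beside 1224 in library 1), Atic (540 beside 549) and Ppat (1392 beside 1417) were lowest by small margins. The 17 also held all 3 genes of the pyrimidine and of the deoxynucleotide roles as deposited, but Cad and Rrm2 by a difference of only 5 units each. Cad left the set under both other scalings and Rrm2 with median-ratio factors, which left 2 of 3 in those roles. The 11 were Phgdh, Psph, Shmt2, Mthfd1l, Mthfd2l, Aldh18a1, Pycr1, Gart, Impdh1, Srm and Sms, and their share was that of detected genes. Gldc, a glycine decarboxylase known from glial cells, had values of 210, 276, 164 and 581, also highest in library 4. The photoreceptor, pericyte and Müller glia and progenitor sums were highest in this library too, as were 10 of 10, 5 of 6 and 7 of 10 of their markers. Glul and Apoe, the largest of the Müller glia and progenitor markers, were highest in library 1. The EC marker sum was lowest in library 4, at 56762 beside 58312 to 59595 in libraries 1 to 3. The part of these cell types in the levels of the 36 genes was not tested.

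**Figure D5:**
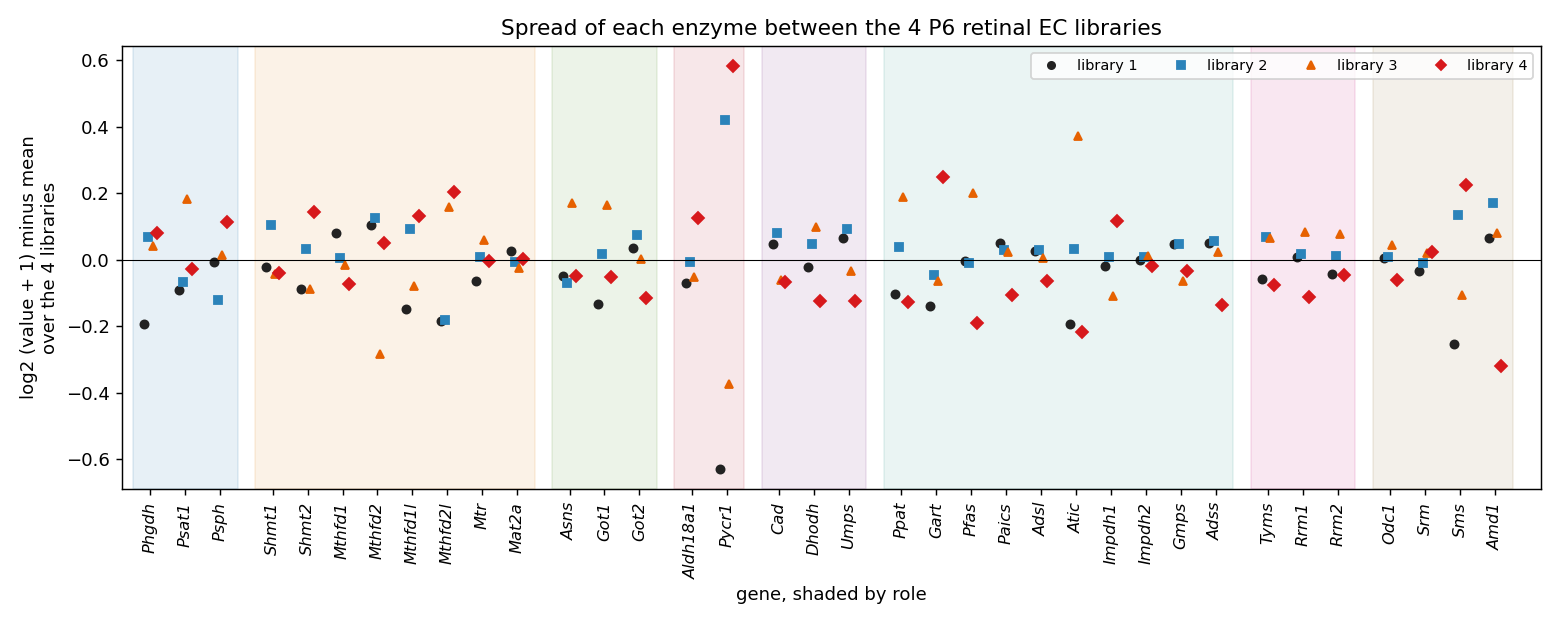
Log2 (value + 1) of each enzyme in each library minus its mean over the 4 libraries of P6 retinal ECs, shaded by role. Library 4 is the lowest point for 17 genes, among them 7 of 10 purine genes, and Pycr1 has the widest spread. Cad and Rrm2 count among the 17 only by near ties and leave them with median-ratio factors. Impdh2, Atic and Ppat are lowest in library 4 by small margins.

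Other genes of these pathways, 90 by list, were measured beside the 36: 89 were in the table and 84 were detected. Of 22 one-carbon and serine genes 20 were detected, among them Dld (999 ± 20.9 per kb), Mat2b and Sfxn1 (662 ± 41.1 per kb), which carries serine into mitochondria. Aldh1l1, a cytosolic formyl-folate dehydrogenase known from astrocytes and liver, was not detected (values 0 to 11). Among proline, glutamate and aspartate genes 14 of 14 in the table were detected, among them Glud1 (854 ± 19.7 per kb), which interconverts glutamate and its keto acid, and Glul (667 ± 29.6 per kb), which makes glutamine. Glul also counts among the Müller glia and progenitor markers, and the part of those cells in its level was not tested.

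Transcripts of salvage genes were present beside those of new synthesis. All 15 other pyrimidine genes were detected, among them Dck (851 ± 61.4 per kb), Cmpk1 (715 ± 22.5 per kb) and Uck2 (551 ± 29.1 per kb), kinases of nucleosides and nucleotides. All 15 other purine genes were detected, among them Hprt (1525 ± 42.0 per kb), which salvages hypoxanthine and guanine, Aprt (1122 ± 32.4 per kb), which salvages adenine, and Ampd2 (368 ± 77.5 per kb), which deaminates AMP. Hprt stood above each of the 36 enzymes per kb. Of 13 polyamine genes 10 were detected, among them Sat1 (2099 ± 38.9 per kb), Smox (844 ± 29.2 per kb) and Azin1 (518 ± 73.1 per kb), of which Smox and Sat1 serve breakdown and reconversion. Among the regulators all 10 were detected, among them Nfe2l2 (1152 ± 34.7 per kb), Myc and Atf4, whose levels stand above.

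In the table's own KEGG annotation the term for the folate one-carbon pool held 19 genes, of which 10 are among the 36. The other 9 had a median of 30.1 per kb and 7 of them were detected, beside a median of 217 per kb for the 10. Other terms showed a smaller contrast. For purine metabolism the medians were 573 per kb for 12 of the 36 and 208 for 153 other genes. For pyrimidine metabolism they were 538 for 6 of the 36 and 321 for 90 other genes. For metabolic pathways they were 437 for the 36 and 198 for 1098 other genes.

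Reads can be shared with near-identical copies. Of the 36, 27 had no transcript of another gene with at least 95% identity over at least 300 bases on the same strand, and 9 had at least 1 such copy, 31 in all. Of these copies 16 were in the table, and those of Phgdh, Odc1, Sms, Amd1, Impdh2 and Mat2a had means of 0 to 27.3. Tyms shared a stretch of 330 to 361 bases with 5 other genes, among them Map3k2 and Wdr59 (means 472 and 415). The copies of Got2 and Rrm2 were not in the table. Amd2 matched Amd1 at 99.6% identity over 3202 bases, and Sms-ps matched Sms at 100% over 1101 bases. Impdh2-ps matched Impdh2 at 99.7% over 1545 bases, and Gm7901 matched Phgdh at 98.7% over 1597 bases. A low mean of a copy does not show how many reads it shares. How reads were divided between copies is not given in the sources used here. The levels of these 9 genes, and the folds of pairs that hold them, are uncertain to that degree.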

How the data were processed

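RNA-seq was analysed from 4 libraries of P6 retinal ECs, made per the labels from stranded poly(A) RNA read from 1 end. The deposited values are a score: whole numbers that the authors obtained from reads per Ensembl gene after normalising the libraries. For the mouse libraries, aligner, build, counting, treatment of duplicates and kind of normalisation are not given in the sources used here; the submitters' processing notes name FastQC. Raw depth is therefore unknown, and no count model or counting interval was used. Of 26778 gene IDs found in GENCODE M21 (GRCm38), 99.2% had equal positions, as did 35 of the 36 enzymes (the end of Amd1 differed). Where a symbol had several rows (11 symbols), its highest row by mean was used.

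Values were divided by the union of exons of M21 basic transcripts, and log2(value + 1) was used, which understates differences of low genes. For gene pairs, an exact two-sided permutation test was used with Benjamini-Hochberg adjustment and a threshold of 0.05. A library was called apart by Dixon's test. Copies were searched with BLAST 2.17.0, and tables were made with Python 3.11.15, numpy 2.4.6 and pandas 2.3.3. The functions were tested on simulated data. All 36 genes were named, with the 3 highest of each other list by mean and every gene of the pairs, except that 1 fixed pair and 1 gene so chosen are not reported here; genes named beyond this rule (among them Ddit3, Trib3, Gldc, Pycrl, Sfxn1, Aldh1l1, Mat1a, Lrp8 and the neighbours and copies) were chosen after their values were seen. The genes, lists, pairs and motifs were chosen with earlier results of these data known. Leaving out libraries, other scalings, lengths, pseudocounts and minimums were tried. No per-sample column was left out.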

Additional observations from a re-analysis of the deposited data

Results flagged for a closer look

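Of 77 values compared between the 4 libraries, 6 had 1 library far from the other 3, beside 3.85 that a chance rate of 1 in 20 gives. Phgdh was 422 in library 1 and 496 to 510 in the others. Shmt1 was 639 in library 2 and 577 to 585 in the others. Asns was 1049 in library 3 and 888 to 901 in the others. Paics was 2561 in library 4 and 2804 to 2854 in the others. The summed photoreceptor markers were 15710 in library 4 and 5711 to 6971 in the others, 2.51-fold above the mean of those. The log2 difference between Shmt2 and Shmt1 was 2.10 in library 4 and 1.85 to 1.87 in the others.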

How the results depend on the processing

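All 15 pairs kept their order and passed with a pseudocount of 10 or 0.1, median-ratio factors and equal totals, and 14 passed on the deposited scale and with the longest transcript. Without division by length, Rrm1 exceeded Rrm2 by 0.51 on the log2 scale, the reverse of the order per kb, and Mthfd2 against Mthfd2l missed the threshold there and with the longest transcript. Without any 1 library 3 values against 3 cannot give an exact permutation p under 0.1, so separation alone was read, and it held for 15 pairs each time. With the library as a replicate block (exact sign-flip permutation within libraries) 0 of 15 pairs could pass, since 0.125 is the smallest p it can give, and each pair has that p unadjusted as well. The members of a pair were measured in the same libraries, so the pairing comes from the design.

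All 36 genes stayed detected under each minimum tried and without any 1 library. The count above the median of detected genes was 30, with 24 to 36 under other minimums and 28 without length, and 30 to 31 without any 1 library. The number lowest in library 4, 17, became 15 with median-ratio factors and 16 with equal totals, and the 11 highest there stayed 11. The settings for the 17 were chosen after seeing the data. Low values may rest on few reads. This limits Adssl1 (12, 17, 14 and 8) most and, among the 36, Pycr1 (56, 117, 67 and 131).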
